A study of Mus musculus with 13 samples.

Results

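Collagens are the main structural proteins of the extracellular matrix, and the genes described here are the 44 mouse genes whose symbols name a collagen chain (Col, a type number, the letter a and a chain number). A gene was kept where its summed expected count over the 13 libraries reached 10. All 44 collagen genes reached it, among 22984 such genes of 55536 in the files, and all 44 are annotated as protein coding. They were divided by known role into 11 fibrillar, 8 basement membrane, 6 beaded filament and 8 fibril-associated collagens and 5 collagens collected as neuronal. The last class, of 6, mixes network-forming and other collagens. Of the 44, 43 passed the filter on low counts and were tested. Col10a1, the chain of growth plate cartilage, did not pass and is given by its level alone.

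A collagen molecule is a triple helix of chains with a repeating glycine. The chains are hydroxylated and assembled in the endoplasmic reticulum, secreted, trimmed and, in the fibrillar types, cross-linked by lysyl oxidases. In the brain, fibrillar collagens lie mostly in the meninges and around larger vessels, while collagen IV forms the sheet-like basement membrane around capillaries. Several transmembrane collagens and Col19a1 are made by neurons. Col25a1 is the precursor of a component of amyloid plaques.

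Frontal cortex RNA was sequenced at the ages of 6 and 11 months in wild-type mice (strain B6SJLF1/J) and in the transgenic line 5XFAD. Those transgenic mice carry human transgenes with familial Alzheimer's disease mutations, driven by the mouse Thy1 regulatory sequence in neurons, so the line models amyloid deposition rather than the whole disease. At 6 months there were 4 libraries of wild type and 3 of 5XFAD, at 11 months 3 of each, and the labels name no further treatment. The labels do not state whether libraries are separate animals, so the p-values rest on library-to-library spread, some of which may be technical.

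The libraries held 23618296 to 26615776 counts. Microglial marker genes, which rise around amyloid, summed to 293 to 525 CPM (counts scaled to a common library total) in the 7 wild-type libraries and 633 to 1613 in the 6 5XFAD libraries, without overlap. Markers of excitatory cortical neurons were present in all 13 libraries (summed 3524 to 7565 CPM). Wild-type library 1 at 6 months stood apart: its choroid plexus markers summed to 2989 CPM, against 5.49 to 39.8 in the other 12. Striatal neuron markers ranged from 347 to 3928 CPM and were highest in wild-type libraries 1 and 3 at 6 months and 3 at 11 months. Xist and Y-linked counts marked each of the 3 younger 5XFAD libraries as male, and both sexes occurred in each other group. Replicate numbers below follow the order of deposition and pair nothing.

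Levels between genes were compared in TPM, which scales each gene for transcript length and each library to a common total. Col6a1, a chain of the beaded filaments of collagen VI, had the highest mean TPM of the collagen genes at 47.6 and made up 26.5% of all collagen TPM. Next came Col16a1 (13.6), Col4a2 (13.2), Col9a3 (13.1) and Col11a2 (12.8), and these 5 genes together held 55.7%. The lowest mean TPM was that of Col4a3, a chain of the kidney basement membrane, at 0.0792. By class, beaded filament collagens held 34.4% of collagen TPM, fibril-associated 23.1%, fibrillar 17.5%, basement membrane 14.8%, neuronal 6.07% and the others 4.19%. Collagen I and III, the bulk collagens of connective tissue, were low here: mean TPM was 0.712 for Col1a1, 1.52 for Col1a2 and 0.328 for Col3a1. The order of neighbouring genes is not firm, since the highest library exceeded the lowest 2.26 to 35.0 times in the 42 genes without a library at 0.

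**Figure D1:**
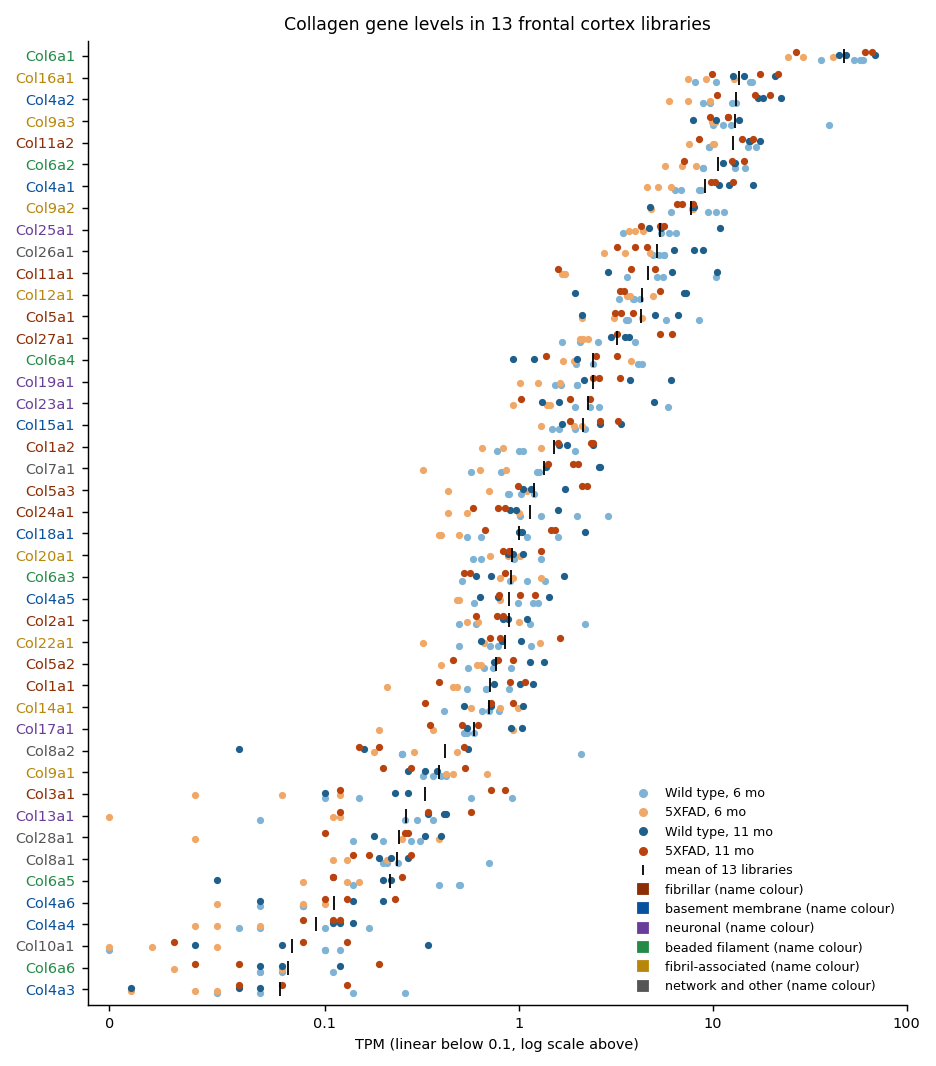
TPM of the 44 collagen genes in each of the 13 frontal cortex libraries (points, coloured by group; axis linear below 0.1 and log above), with the mean of all libraries as a bar and gene names coloured by class. Col6a1 stood above all others at 47.6 TPM, Col4a3 was lowest at 0.0792, and the points of neighbouring genes overlapped.

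Tests were run on TMM-scaled counts over 17483 genes with edgeR's quasi-likelihood test and Benjamini-Hochberg adjustment, and a gene was called at an adjusted p under 0.05. Between 5XFAD and wild type, 0 collagen genes were called at 6 months and 0 at 11 months, where 1.32% and 4.31% of all tested genes were called. At an unadjusted p under 0.05 there were 5 and 4. DESeq2 called 1 and 0, and limma on log2(TPM + 1) called 0 and 1. At 6 months, 39 of 43 collagen genes had a negative log2 fold change, with a median of -0.39, against 51.7% of all genes and a median of -0.007. At 11 months 24 of 43 were negative, with a median of -0.024, against 54.9% of all genes and a median of -0.027. At 6 months all 3 5XFAD libraries were male, against 2 of 4 wild-type ones, so sex and genotype cannot be fully told apart there. The same 5XFAD libraries enter the age change in 5XFAD below, so the 6-month difference and that change are not independent. The change of the genotype difference between ages gave 0 calls among collagens (3 at an unadjusted p under 0.05, 0 by DESeq2 and 0 by limma) and 1 among all genes (0.00572%).

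Between ages 7.23% of all tested genes were called in 5XFAD and 3.71% in wild type, and the collagen genes called were all higher at 11 months. From 6 to 11 months 5 collagen genes rose in 5XFAD mice (Col27a1, Col4a1, Col3a1, Col1a2 and Col4a2). These were 11.6% of the collagens tested, where 4.84% of all genes rose. In wild type 1 rose, Col19a1. It was 2.33% of the collagens tested, near the 2.42% of all genes that rose. None fell in either genotype, where 2.39% and 1.29% of all genes fell. The median log2 fold change of the 43 collagens was 0.54 in 5XFAD and 0.28 in wild type, against -0.001 and 0.015 for all genes. Whether the age change differed between genotypes is the same test as the change of the genotype difference between ages, which called no collagen.

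An average of the age change over both genotypes, chosen after seeing the data, called 10 collagen genes higher and 0 lower, where 12.6% of all genes were higher and 10.1% lower. These were Col4a1, Col4a2 and Col18a1 of the basement membrane, Col1a2, Col3a1, Col5a3 and Col27a1 of the fibrillar class, Col19a1 and Col13a1 of the neuronal class, and Col7a1. Col4a1, Col4a2, Col1a2, Col27a1 and Col19a1 were called under all 20 alternatives tried for this average. The other 5 lost the call under 6 (Col7a1) to 13 (Col13a1) of them.

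The count in 5XFAD depended on single libraries. It was 0 without 5XFAD library 1 at 6 months or library 3 at 11 months, 1 (Col27a1) without library 2 at 6 months or library 1 at 11 months, and 8 without library 2 at 11 months. It was 1 (Col27a1) with sex as a covariate, and sex and age cannot be fully told apart in 5XFAD because all 3 libraries at 6 months were male and 2 of 3 at 11 months female. In wild type it was 0 without each library of the 6-month group in turn, 0 without library 2 at 11 months, and 3 without library 1 at 11 months. Calls over all genes moved as well. In 5XFAD they were 1264, against 176 without library 1 and 308 without library 2 at 6 months. Without libraries 1, 2 or 3 at 11 months they were 560, 798 and 97, and with sex 881. In wild type they were 649, against 0 to 417 without single libraries at 6 months. Without library 2 at 11 months they were 2, and without library 1 there 1921.

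Among the fibrillar collagens, Col27a1, a fibrillar chain known from cartilage, gave the smallest adjusted p of the collagens in 5XFAD. It stood at 5.803, 8.33 and 8.86 CPM in the 5XFAD libraries at 6 months and 20.03, 12.4 and 24.3 at 11 months, where every older library lay above every younger one. The log2 fold change was 1.30 ± 0.26 (SE, adjusted p = 0.0149). The call was lost under 3 of 14 alternatives, namely without 5XFAD library 1 at 6 months or library 3 at 11 months (adjusted p 0.0786 and 0.0855) and in limma on log2(TPM + 0.1), and adjusted p ranged from 7.47e-05 to 0.0855. In wild type, Col27a1 read 10.03, 8.09, 12.1 and 6.82 CPM at 6 months and 10.3, 14.7 and 12.2 at 11 months, with overlap, a change of 0.42 ± 0.24 (adjusted p = 0.318). Its genotype difference at 11 months was 0.61 ± 0.26 (adjusted p = 0.258), so it did not pass.

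Col1a2 encodes the second chain of collagen I, and Col3a1 the single chain of collagen III, which shares fibrils with it. Col1a2 read 2.38, 3.21 and 5.17 CPM in 5XFAD mice at 6 months and 9.06, 6.29 and 9.26 at 11 months. All older libraries were above all younger ones, and the change was 1.19 ± 0.31 (adjusted p = 0.0385). That call was lost under 8 of 14 alternatives (adjusted p 0.00426 to 0.157), among them leaving out libraries 1 or 2 at 6 months or 1 or 3 at 11 months. In wild type Col1a2 read 6.68, 2.88, 3.76 and 3.72 at 6 months and 7.97, 6.3001 and 6.45 at 11 months, where library 1 of the younger group overlapped the older ones (change 0.70 ± 0.29, adjusted p = 0.164). Without that library, which carried the choroid plexus markers, the change averaged over both genotypes was 1.09, against 0.94 ± 0.21 with it (adjusted p = 0.00809).

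Col3a1 was among the scarcest, at 0.358, 0.169 and 0.466 CPM in 5XFAD mice at 6 months and 2.14, 0.484 and 2.05 at 11 months. Libraries 1 and 3 of the older group were high, and library 2 was near the younger ones. Its change had the largest size and the largest standard error of the 5 calls, 2.21 ± 0.57 (adjusted p = 0.0349), and the call was lost under 8 of 14 alternatives (adjusted p 0.00594 to 0.197). These included leaving out any 1 of the 5XFAD libraries other than library 2 at 11 months. In wild type it read 0.737, 0.569, 0.815 and 0.368 CPM at 6 months and 0.837, 0.404 and 1.04 at 11 months, and the groups overlapped.

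**Figure D2:**
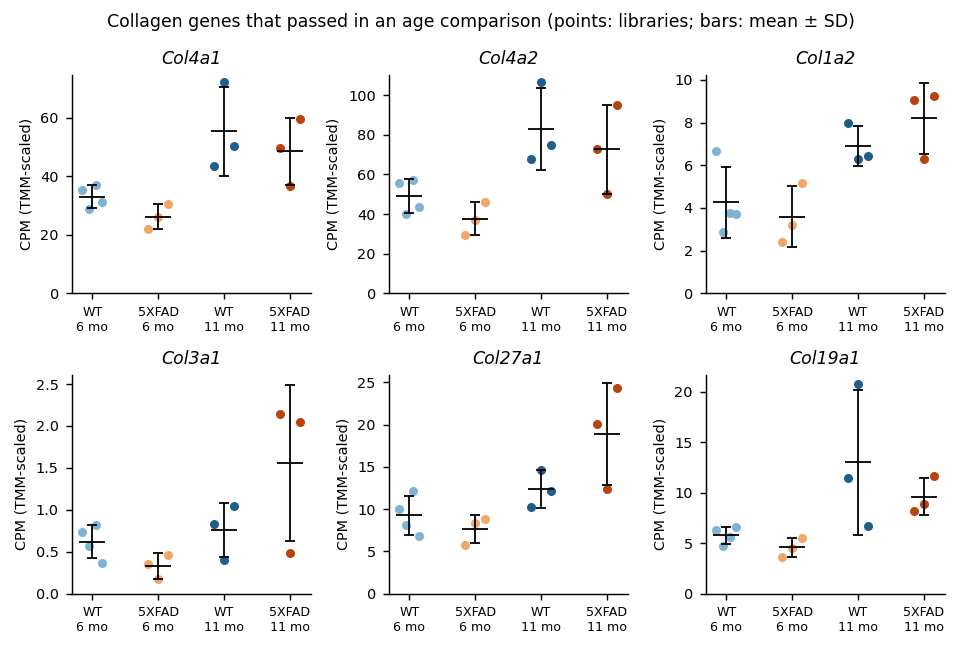
TMM-scaled CPM of the 6 collagen genes called in an age comparison, 1 point per library, with the group mean and SD as bars; each panel has its own axis from 0. In 5XFAD, libraries at 11 months lay above those at 6 months in all 6 panels, and in wild type they did so for Col4a1, Col4a2 and Col19a1 only.

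The promoters of the age-called fibrillar genes Col3a1 and Col27a1 are shown with the letters searched in all collagen promoters, to allow a comparison between 2 genes called together. The sequences are the 250 bases before the RefSeq start (GRCm38.p6), at chr1:45311288-45311537 for Col3a1 and chr4:63215162-63215411 for Col27a1, both on the plus strand and outside annotated exons. The Col3a1 window ends at the annotated start of its gene, while that of Col27a1 lies within its annotated gene, which begins at 63214004 in GENCODE M21. Capitals mark 3 promoter motifs on either strand: the TATA box as TATAAA, the CAAT box as CCAAT, and the GC box as GGGCGG.
Col3a1: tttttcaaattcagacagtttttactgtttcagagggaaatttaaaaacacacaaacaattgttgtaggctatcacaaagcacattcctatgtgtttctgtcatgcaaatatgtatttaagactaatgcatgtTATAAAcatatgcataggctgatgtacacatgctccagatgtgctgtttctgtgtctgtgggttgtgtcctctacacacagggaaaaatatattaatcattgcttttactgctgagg
Col27a1: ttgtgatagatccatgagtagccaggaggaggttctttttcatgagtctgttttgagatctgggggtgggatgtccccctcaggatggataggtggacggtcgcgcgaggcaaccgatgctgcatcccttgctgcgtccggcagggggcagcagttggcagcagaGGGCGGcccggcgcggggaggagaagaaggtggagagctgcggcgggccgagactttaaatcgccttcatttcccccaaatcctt
The Col3a1 window held 1 TATAAA and no GGGCGG, at 35.2% GC. That of Col27a1 held 1 GGGCGG and no TATAAA, at 59.6% GC. RefSeq windows were given for 35 of the 44 collagen genes (38 windows). Of these, 13.2% held TATAAA, 34.2% CCAAT and 57.9% GGGCGG, against 12.4%, 33.8% and 32.7% of all 32851 windows of that length. Matches of CCAAT and GGGCGG may share letters on opposite strands. Median GC was 59.0% in collagen windows and 52.4% in all. A match describes the letters only.

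The fibrillar genes of highest mean TPM were Col11a2, Col11a1 and Col5a1, the chains of collagens XI and V, which set the width of fibrils. Col11a1 read 23.2, 11.1, 15.1 and 9.599 CPM in wild type against 4.53, 6.81 and 5.79 in 5XFAD at 6 months, with no overlap. It read 7.45, 16.9 and 32.4 in wild type against 12.2, 6.49 and 10.8 in 5XFAD at 11 months, where library 3 of wild type stood highest. The genotype difference was -1.37 ± 0.47 at 6 months (adjusted p = 0.329) and -0.94 ± 0.47 at 11 months (adjusted p = 0.375). Its highest wild-type libraries, 1 at 6 months and 3 at 11 months, were also among the 3 highest in striatal neuron markers, whose part in the result was not tested. Without wild-type library 1 the difference at 6 months was -1.07, and without wild-type library 3 that at 11 months was -0.31 (adjusted p = 0.798).

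Col11a2 read 39.7, 25.9, 50.4 and 27.7 CPM in wild type against 17.5, 29.2 and 29.8 in 5XFAD at 6 months, and 31.997, 42.1 and 41.6 in wild type against 40.98, 20.5 and 37.5 in 5XFAD at 11 months. The groups overlapped at both ages, with genotype differences of -0.49 ± 0.29 and -0.22 ± 0.31. Col5a1 read 34.6, 21.7, 47.3 and 21.2 CPM in wild type against 13.8, 24.1 and 20.3 in 5XFAD at 6 months, and 36.3, 31.4 and 12.3 in wild type against 24.3, 20.6 and 20.96 in 5XFAD at 11 months. It too overlapped, and neither gene passed in any comparison.

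Col24a1, a fibrillar chain known from bone and cornea, had the smallest p of the collagens between genotypes at 6 months. It read 11.8, 6.09, 9.85 and 3.96 CPM in wild type against 2.38, 3.93 and 2.99 in 5XFAD, and the highest 5XFAD library lay just below the lowest wild-type one. The difference was -1.35 ± 0.37 (adjusted p = 0.135). DESeq2 called it (adjusted p = 0.00905), edgeR called it without wild-type library 4 (0.0373), and adjusted p ranged from 0.00905 to 0.544 over 14 alternatives. At 11 months Col24a1 read 4.18, 8.32 and 4.79 CPM in wild type against 3.92, 2.98 and 4.77 in 5XFAD, with overlap. In all, 5 collagen genes had every 5XFAD library below every wild-type library at 6 months (Col11a1, Col18a1, Col23a1, Col24a1 and Col26a1) and 1 above (Col9a1), where 5.07% and 6.97% of all genes did.

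An average of the genotype difference over both ages, also chosen after seeing the data, called 2 collagen genes lower in 5XFAD and 0 higher, where 1.46% of all genes were lower and 4.88% higher. These were Col24a1 (-0.96 ± 0.26, adjusted p = 0.0489) and Col26a1 (-0.52 ± 0.14, adjusted p = 0.04102). Both rested on single libraries. Col24a1 lost the call under 14 of 20 alternatives, among them leaving out any 1 library other than wild-type library 4 at 6 months and library 1 at 11 months. Col26a1 lost it under 10, all of them leaving out 1 library, and held it without 5XFAD library 3 of either age or wild-type library 3 at 11 months. Without wild-type library 1 at 6 months the values were -0.83 and -0.51, and neither was called.

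**Figure D3:**
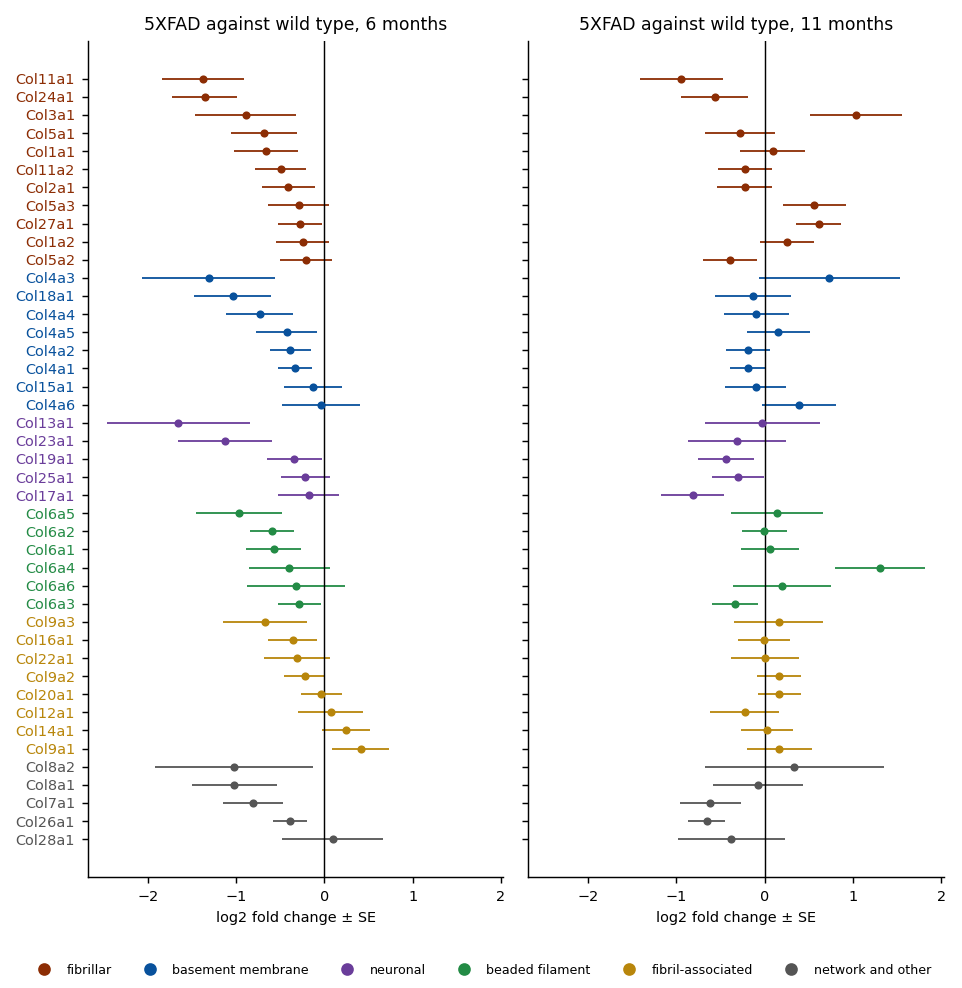
Log2 fold change of 5XFAD against wild type (point) with its standard error (line) for the 43 tested collagen genes at 6 months (left) and 11 months (right), coloured by class and ordered by the value at 6 months within a class. At 6 months 39 of 43 points lay below 0, at 11 months 24 did, and no gene was called at either age.

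Markers of fibroblasts and meninges were measured beside the collagens. The 12 markers summed to 101, 45.9, 50.5 and 57.8 CPM in wild type against 34.98, 37.3 and 48.5 in 5XFAD at 6 months, and to 70.8, 56.9 and 87.2 in wild type against 89.1, 59.6 and 86.5 in 5XFAD at 11 months. All 12 had a negative genotype difference at 6 months (median -0.73, 0 called), and 4 of 12 a positive one at 11 months (1 called, Islr). Of all genes 1.32% and 4.31% were called there. From 6 to 11 months 5 of 12 markers rose in 5XFAD and 0 in wild type, where 4.84% and 2.42% of all genes rose. The age change was positive in 12 of 12 in 5XFAD and 9 of 12 in wild type. For the change of the genotype difference between ages 0 of 12 were called. Wild-type library 1 at 6 months, the one high in choroid plexus genes (2989 CPM), was highest of its group in the sum of these markers. It was also highest there in the sum of all collagens (654 CPM). In 5XFAD, library 1 at 6 months and library 2 at 11 months were lowest of their groups in both sums (all collagens 301 and 404). The highest 5XFAD libraries differed between the sums at both ages. Within wild type at 11 months, library 2 had the lowest sum of these markers (56.9 CPM) and the highest of all collagens (698). No marker was at 0 in all libraries. Their part in the collagen results was not tested, and in bulk tissue more cells of a type and more RNA per cell cannot be told apart.

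Within the basement membrane class, Col4a1 and Col4a2, the 2 chains of the main collagen IV trimer of vessels, rose with age. Col4a1 read 35.2, 28.8, 37.2 and 31.2 CPM in wild type at 6 months and 43.4, 72.2 and 50.3 at 11 months, and in 5XFAD 22.1, 25.97 and 30.7 at 6 months and 49.6, 36.7 and 59.5 at 11 months. Older libraries lay above younger ones without overlap in both genotypes. The change was 0.89 ± 0.21 in 5XFAD (adjusted p = 0.0253), 0.74 ± 0.19 in wild type (adjusted p = 0.0505) and 0.82 ± 0.14 over both (adjusted p = 0.002603). The wild-type value missed the threshold narrowly in edgeR and passed in DESeq2, in limma and without library 1 at 11 months.

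Col4a2 read 55.5, 40.2, 57.02 and 43.6 CPM in wild type at 6 months and 67.9, 107 and 74.7 at 11 months, and in 5XFAD 29.7, 36.8 and 46.2 at 6 months and 73.1, 50.2 and 95.03 at 11 months. Again no younger library reached an older one of its genotype. The change was 0.95 ± 0.25 in 5XFAD (adjusted p = 0.0407), 0.76 ± 0.23 in wild type (adjusted p = 0.0758) and 0.86 ± 0.17 over both (adjusted p = 0.00492). The 5XFAD call of both was lost with sex as a covariate and without 5XFAD libraries 1 or 2 at 6 months or 1 or 3 at 11 months, and that of Col4a2 also without library 3 at 6 months (5 of 14 alternatives for Col4a1 and 8 of 14 for Col4a2, the highest adjusted p being 0.124 and 0.178), while the average over both genotypes passed in all 20 for each.

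The 2 genes lie head to head on chromosome 8 (GRCm38), Col4a1 at chr8:11198423-11312826 on the minus strand and Col4a2 at chr8:11312805-11449287 on the plus strand. Their annotated first exons share 22 bases, at chr8:11312805-11312826, shown on the plus strand because both genes start within it. Capitals mark GGGCGG.
Col4a1 and Col4a2 shared: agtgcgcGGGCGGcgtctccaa
Reads within the shared bases cannot be assigned by position alone, but these are 0.295% of the exon bases of Col4a1 and 0.332% of those of Col4a2. The TPM of Col4a2 was 1.06 to 1.69 times that of Col4a1 over the 13 libraries, with a median of 1.43. The ratio of Col6a2 to Col6a1 ran from 0.164 to 0.289, while wider ranges were seen for Col1a2 to Col1a1 (1.13 to 4.10) and Col11a2 to Col11a1 (1.46 to 6.03). Col4a3 and Col4a4, whose 5′ ends lie 72 bases apart, had means of 0.0792 and 0.0962 TPM.

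Col15a1 and Col18a1 are basement membrane proteoglycans, and the tail of Col18a1 releases endostatin. Col15a1, next in the class by mean TPM, read 4.30, 3.78, 6.52 and 3.51 CPM in wild type against 2.94, 4.99 and 4.47 in 5XFAD at 6 months, and 6.18, 9.41 and 3.16 in wild type against 5.705, 4.88 and 6.896 in 5XFAD at 11 months. The groups overlapped in all comparisons. Col18a1 read 1.51, 1.86 and 1.55 CPM in 5XFAD at 6 months and 5.66, 2.50 and 5.15 at 11 months, without overlap, but missed the threshold there (1.43 ± 0.46, adjusted p = 0.0747). In 5XFAD 6 of 8 basement membrane collagens had all older libraries above all younger ones, and in wild type 2 of 8 did, where 18.4% and 9.11% of all genes did.

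Markers of vessel cells moved in the same direction between ages. The 11 endothelial markers summed to 214, 223, 266 and 231 CPM in wild type at 6 months and 315, 493 and 365 at 11 months, and in 5XFAD to 229, 218 and 218 at 6 months and 284, 374 and 309 at 11 months. Of these 11, 8 rose in wild type, 6 in 5XFAD and 11 in the average over both genotypes. Of 9 mural cell markers, 6 rose in that average. Of all genes 2.42% rose in wild type, 4.84% in 5XFAD and 12.6% in that average. The library highest in the endothelial sum was also highest in Col4a1 and Col4a2 in each wild-type group. That was library 3 at 6 months and library 2 at 11 months. In each 5XFAD group the library highest in that sum was lowest in Col4a1 and Col4a2. That was library 1 at 6 months and library 2 at 11 months. The part of vessel content in the rise of collagen IV was not tested.

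**Figure D4:**
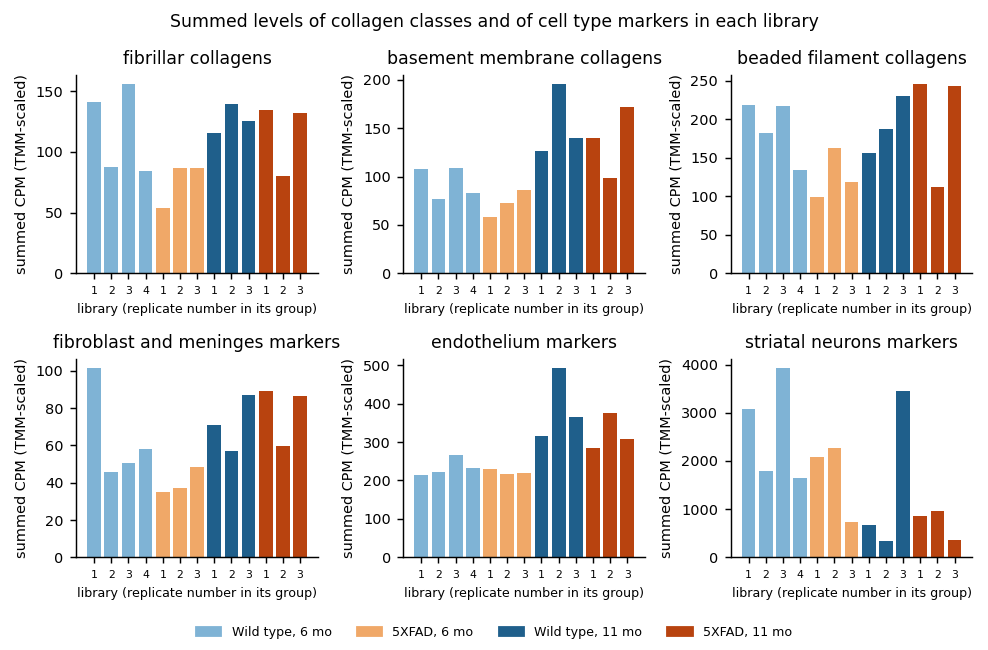
Summed TMM-scaled CPM of 3 collagen classes (upper row) and of 3 marker lists (lower row) in each library, coloured by group; bars start at 0 and each panel has its own scale. Endothelial markers stood at 214 to 266 CPM at 6 months and 284 to 493 at 11 months, the collagen classes overlapped more between ages, and striatal markers were highest in 3 wild-type libraries.

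The neuronal class was led by Col25a1, a transmembrane collagen. Col25a1 read 24.4, 28.5, 15.2 and 25.98 CPM in wild type against 20.1, 18.4 and 22.1 in 5XFAD at 6 months, and 18.7, 23.7 and 44.9 in wild type against 24.2, 19.6 and 27.2 in 5XFAD at 11 months. The groups overlapped at both ages, apart from 1 high wild-type library at 11 months. The genotype difference was -0.22 ± 0.28 at 6 months (adjusted p = 0.8804) and -0.30 ± 0.29 at 11 months (adjusted p = 0.704).

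The Col25a1 promoter is shown as that of the plaque-related member. It is the 250 bases before the RefSeq start (GRCm38.p6, chr3:130180595-130180844, plus strand), outside annotated exons but within the annotated gene, which begins at 130131501 in GENCODE M21, with the same 3 motifs in capitals.
Col25a1: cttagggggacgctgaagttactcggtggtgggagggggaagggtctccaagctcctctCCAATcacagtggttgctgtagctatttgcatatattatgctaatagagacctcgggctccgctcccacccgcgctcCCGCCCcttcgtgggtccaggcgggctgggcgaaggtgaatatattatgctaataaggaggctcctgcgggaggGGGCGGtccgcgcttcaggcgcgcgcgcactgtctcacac
It held 1 CCAAT and 2 GGGCGG, counting both strands, and no TATAAA.

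Col19a1, which interneurons secrete at developing synapses, was the single collagen called in wild type between ages. It read 6.27, 4.71, 5.59 and 6.62 CPM at 6 months and 11.5, 20.8 and 6.75 at 11 months, where library 2 was far above the others and library 3 close to the younger ones. The change was 1.17 ± 0.30 (adjusted p = 0.0493), and the call was lost under 10 of 14 alternatives (adjusted p 0.00385 to 0.223), among them leaving out library 2 at 11 months or any library at 6 months. In 5XFAD it read 3.66, 4.53 and 5.56 CPM at 6 months and 8.21, 8.91 and 11.7 at 11 months, without overlap, a change of 1.07 ± 0.33 (adjusted p = 0.0658). Over both genotypes the change was 1.12 ± 0.22 (adjusted p = 0.00441), and it passed under all 20 alternatives.

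Col23a1, a transmembrane collagen, read 23.4, 6.91, 7.14 and 10.2 CPM in wild type against 4.01, 6.01 and 6.33 in 5XFAD at 6 months, and 5.86, 4.73 and 15.99 in wild type against 7.65, 4.31 and 9.38 in 5XFAD at 11 months. Every 5XFAD library was below every wild-type library at 6 months only, and the difference there was -1.13 ± 0.53 (adjusted p = 0.564). Without wild-type library 1, which carried the choroid plexus markers, it was -0.57 (adjusted p = 0.905). Its highest values were in wild-type library 1 at 6 months and library 3 at 11 months, as for Col11a1. Col13a1 and Col17a1 were lower still, at means of 0.263 and 0.587 TPM.

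Among the remaining collagens, Col26a1 had the smallest p between genotypes at 11 months. It read 8.72, 8.004, 8.03 and 8.41 CPM in wild type against 4.73, 6.51 and 7.73 in 5XFAD at 6 months, and 11.6, 10.7 and 7.74 in wild type against 6.72, 4.798 and 7.48 in 5XFAD at 11 months. All 5XFAD libraries were below all wild-type libraries at both ages. The difference was -0.66 ± 0.20 at 11 months (adjusted p = 0.103) and -0.39 ± 0.19 at 6 months (adjusted p = 0.586). At 11 months limma on log2(TPM + 1) called it (adjusted p = 0.0112), as did edgeR without wild-type library 3 (0.0431), and adjusted p ranged from 0.0112 to 0.271 over 14 alternatives. Over all genes the median log2 fold change was -0.118 in that limma run and -0.027 in the main edgeR fit. The genes called lower numbered 338 and 88. The part of that shift in the limma call was not tested.

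Col7a1, the collagen of anchoring fibrils, read 3.56, 2.15, 4.42 and 1.51 CPM in wild type against 1.11, 1.95 and 1.94 in 5XFAD at 6 months, with overlap (difference -0.81 ± 0.34, adjusted p = 0.489). At 11 months it read 3.75, 5.86 and 4.62 in wild type against 3.64, 2.702 and 2.94 in 5XFAD, without overlap. Col6a4, a chain of collagen VI, went the other way at 11 months, at 2.95, 1.41 and 1.83 CPM in wild type against 3.03, 5.85 and 6.43 in 5XFAD (difference 1.30 ± 0.51, adjusted p = 0.217). At 6 months its groups overlapped, at 6.96, 2.36, 7.95 and 3.96 in wild type against 1.95, 6.13 and 4.04 in 5XFAD. At 11 months 3 collagen genes had all 5XFAD libraries below wild type (Col7a1, Col17a1 and Col26a1) and 1 above (Col6a4), where 8.76% and 10.4% of all genes did.

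Col6a1, the most abundant, read 163, 150.5, 167 and 102 CPM in wild type against 75.9, 127 and 90.8 in 5XFAD at 6 months, and 116, 143 and 189.7 in wild type against 195, 80.3 and 193 in 5XFAD at 11 months. Library 2 of the older 5XFAD group was low, and the groups overlapped at both ages. That library was also the lowest of its group in summed collagen CPM (404, against 673 and 710.3). The sum over all collagens was 654, 462, 606 and 428 in wild type against 301, 431 and 418 in 5XFAD at 6 months, and 548, 698 and 654 in wild type at 11 months. None of the 6 beaded filament or 8 fibril-associated collagens was called in any planned comparison.

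Among the genes that build, break down or bind collagen, 2 were called between genotypes at 6 months and 7 at 11 months, all higher in 5XFAD, where 1.3% and 3.8% of all genes were. Of 31 tested genes for collagen folding and processing, 0 were called at 6 months and 2 at 11 months. Lox, the lysyl oxidase that cross-links fibrils, read 0.239, 0.363 and 0.167 CPM in wild type against 2.83, 2.02 and 3.25 in 5XFAD at 11 months, without overlap (3.37 ± 0.51, adjusted p = 0.000903). At 6 months Lox read 0.164, 0.0813, 0.0776 and 0.449 in wild type against 0.556, 0.719 and 1.01 in 5XFAD and missed the threshold (1.96 ± 0.51, adjusted p = 0.0916). Plod3, which hydroxylates and glycosylates lysines, was higher by 0.37 ± 0.10 at 11 months (adjusted p = 0.0419), at 33.1, 34.3 and 32.9 CPM in wild type against 39.3, 42.9 and 47.4 in 5XFAD.

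Of 14 tested breakdown genes and inhibitors, 1 was called at 6 months and 3 at 11 months, all higher in 5XFAD. Mrc2, the endocytic receptor that takes up collagen fragments, read 5.54, 6.66 and 5.25 CPM in wild type against 15.9, 12.5 and 17.5 in 5XFAD at 11 months (1.40 ± 0.17, adjusted p = 0.000208). Timp1, an inhibitor of matrix metalloproteinases, read 0.159, 0.283 and 0.291 CPM in wild type against 1.98, 0.403 and 1.28 in 5XFAD (2.30 ± 0.57, adjusted p = 0.03401), with library 2 of 5XFAD well below the others. Mmp12, the macrophage metalloelastase, was called at both ages (adjusted p = 0.0164 and 0.00534). Its wild-type groups held 1 count each, against 25 counts in 5XFAD at 6 months and 36 at 11 months. Those counts give ratios of 32.2 (exact 95% interval 5.27 to 1321) and 34.3 (5.78 to 1394), which cover counting error only.

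Of 10 tested collagen receptors, 1 was called at 6 months and 2 at 11 months. Lair1, an inhibitory collagen receptor of immune cells, read 7.99, 7.598, 8.26 and 8.95 CPM in wild type against 13.04, 15.1 and 14.9 in 5XFAD at 6 months (0.81 ± 0.18, adjusted p = 0.03996). At 11 months it read 7.37, 12.8 and 8.29 in wild type against 21.7, 24.4 and 32.1 in 5XFAD (1.46 ± 0.19, adjusted p = 0.000285). Cd44, a hyaluronan receptor that also binds collagen, read 1.31, 1.25 and 2.71 CPM in wild type against 8.901, 4.9999 and 8.95 in 5XFAD at 11 months (2.12 ± 0.35, adjusted p = 0.00235). Both genes are made by immune cells. Of 8 microglial markers, 6 were called higher in 5XFAD at 6 months and 7 at 11 months, where 1.3% and 3.8% of all genes were. The part of microglial content in these values was not tested.

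**Figure D5:**
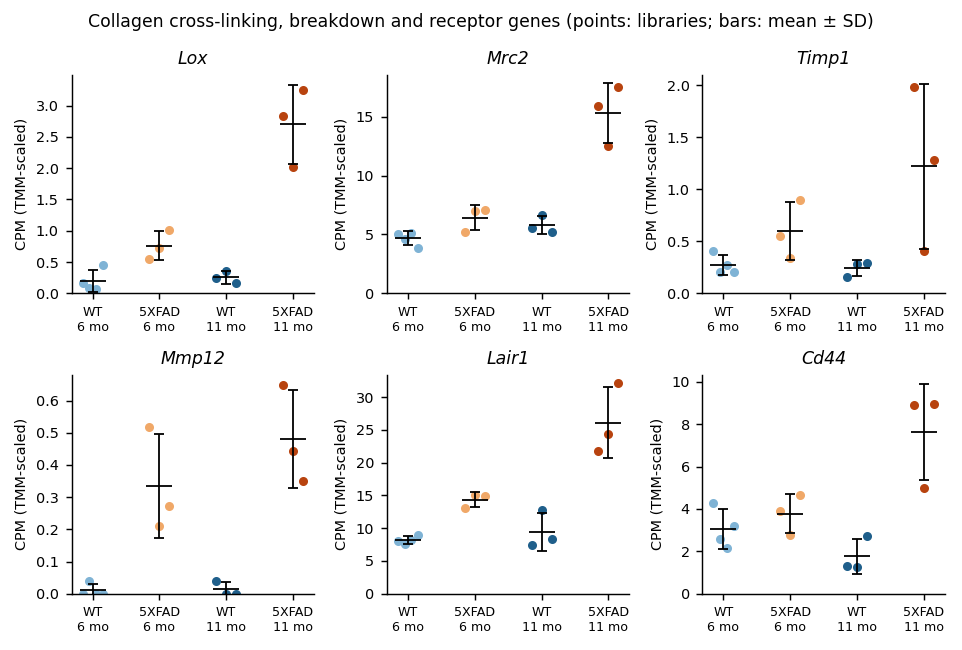
TMM-scaled CPM of 6 genes that cross-link, degrade or bind collagen, 1 point per library, with the group mean and SD as bars; each panel has its own axis from 0. In Lox, Mrc2, Mmp12, Lair1, Cd44 and Timp1 every 5XFAD library at 11 months lay above every wild-type library of that age.

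Other basement membrane proteins (16 tested) and small proteoglycans and elastic fibre proteins (16 tested) gave 0 genotype calls at either age in edgeR. At an unadjusted p under 0.05 there were 4 and 2 at 6 months and 3 and 1 at 11 months. The genotype average over both ages, chosen after seeing the data, called 2 of the first list lower and 0 of the second. There 15 of 16 in the first list and 10 of 16 in the second were negative, and 1.46% of all genes were called lower. In the second list the smallest p was that of Dcn, decorin, at 6 months (-1.20 ± 0.43, adjusted p = 0.365) and Eln, elastin, at 11 months (-0.57 ± 0.23, adjusted p = 0.234). Between ages the laminin chains Lamb2 and Lamc1 rose in both genotypes: Lamb2 by 0.66 ± 0.16 in wild type and by 0.74 ± 0.17 in 5XFAD (adjusted p = 0.0405 and 0.0236), and Lamc1 by 0.38 ± 0.09 and 0.41 ± 0.10 (adjusted p = 0.0428 and 0.0286). Fn1, fibronectin, to which collagens bind, rose from 16.01, 17.8, 18.5 and 17.03 to 30.004, 49.1 and 32.1 CPM in wild type (1.10 ± 0.15, adjusted p = 0.0138) and from 18.6, 14.04 and 15.7 to 34.8, 37.98 and 36.8 in 5XFAD (1.18 ± 0.16, adjusted p = 0.003397). Serpinh1, the collagen chaperone of the endoplasmic reticulum, rose in 5XFAD by 0.58 ± 0.16 (adjusted p = 0.0453) and read 0.45 ± 0.15 in wild type (adjusted p = 0.0946).

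Length and base composition were compared between collagens and other genes. Their part in the age changes was not tested beyond the offsets given here. The median length of collagen genes was 4653 bases and their GC content 54.8%, against 2454 bases and 50.5% for all tested genes. The log2 level moved by -0.079 to 0.011 per doubling of length in libraries at 6 months and by 0.002 to 0.115 at 11 months, each against the mean of all libraries. With length and GC offsets, an alternative chosen after seeing the data, 3 collagens were called between ages in 5XFAD (Col27a1, Col3a1 and Col4a1), 0 in wild type, and 5 over both genotypes.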

How the data were processed

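The submitters' processing notes name STAR 2.7.1, RSEM and the GRCm38 build. No RSEM version, annotation or strand setting is given in the sources used here. Expected counts were deposited, and 7.24% to 7.71% of them per library were not whole. The authors' TPM values served for levels between genes and for limma. The authors' FPKM column was not used. All 55536 identifiers matched GENCODE M21, which gave symbols and coordinates. Libraries were grouped by title.

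Expected counts were rounded. Genes passed edgeR's filterByExpr (minimum count 10, minimum total 15), libraries were scaled by TMM, and edgeR 4.0.16 in R 4.3.3 fitted 4 group means to the 13 libraries together. Comparisons used edgeR's robust quasi-likelihood test with Benjamini-Hochberg adjustment over 17483 genes. Errors of log2 fold changes are standard errors (±), and CPM is TMM-scaled. The script was tested on simulated data.

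Alternatives were DESeq2 1.42.0, its size factors in edgeR, no filter, limma 3.58.1 on log2(TPM + 1) and log2(TPM + 0.1), sex as a covariate, length and GC offsets, and leaving out each library. Totals of 23618296 to 26615776 counts leave genes under 1 CPM with few counts, so that counting error is large.

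The members, classes and lists were chosen with earlier results of these data known. Genes given in full were collagens called in a comparison, the 3 of highest mean TPM in the fibrillar, basement membrane and neuronal classes, the 3 of smallest p in each genotype comparison, and pathway genes called between genotypes, or else that of smallest p, 1 of which is not reported here. Other genes were named after their values were seen.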

Additional observations from a re-analysis of the deposited data

Results flagged for a closer look

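In 3 of the 44 collagen genes, the highest library of the wild-type group at 6 months lay farther from its neighbour than a Dixon test at the 95% level allows, and in each it was library 1. In Col9a3, a fibril-associated chain of collagen IX, it read 45.6 CPM against 14.9 in the next library. In Col8a2 it read 6.31 CPM against 0.737, and in Col8a1 2.50 against 0.858. Both are chains of the short-chain network collagen VIII. The test was run in this group only, the single group of 4 libraries. It flags about 1 in 20 groups by chance, and 44 genes were checked, so some flags arise by chance. The share flagged over all genes was not taken. The same library carried 2989 CPM of choroid plexus markers, against 5.49 to 39.8 in the other 12 libraries. The part of that tissue in the 3 values was not tested.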

How the results depend on the processing

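The count of called collagens is the value that moved most. Between genotypes at 6 months it was 0, 1 with DESeq2 (Col24a1) and 0 to 1 without single libraries. At 11 months it was 0, 1 with limma on log2(TPM + 1) or log2(TPM + 0.1) (Col26a1) and 0 to 1 without single libraries. For the change of the genotype difference between ages it was 0 throughout. Between ages in wild type it was 1, 4 with DESeq2, 0 without a filter, with sex or with length and GC offsets, and 0 to 3 without single libraries. In 5XFAD it was 5, 10 with DESeq2, 3 with log2(TPM + 0.1), 1 with sex, 3 with length and GC offsets, and 0 to 8 without single libraries. The averages and the length and GC offsets were chosen after seeing the data. The age average gave 10, 6 with sex, 5 with length and GC offsets, and 5 to 14 without single libraries. The genotype average gave 2, 1 without a filter, with sex or with length and GC offsets, and 0 to 2 without single libraries. Calls over all genes moved too. Between ages in wild type they were 649, 1845 with DESeq2, 451 without a filter, 345 with sex and 71 with offsets. In 5XFAD they were 1264, 2062 with DESeq2, 686 with log2(TPM + 0.1), 881 with sex and 1077 with offsets. Without single libraries they were 0 to 1921 in wild type and 97 to 1147 in 5XFAD. Between genotypes they were 231 at 6 months (381 with DESeq2) and 753 at 11 months (1114). The age average gave 3963 and the genotype average 1109. The cause of these moves was not tested, nor was the loss of power from having fewer libraries. All reversed values were of genes called in no genotype comparison. At 6 months Col15a1 ran from -0.281 to 0.096 without single libraries. At 11 months Col15a1 read 0.014 with log2(TPM + 1) and 0.025 with log2(TPM + 0.1). Leaving out single libraries gave -0.628 to 0.002 for Col5a1, -0.431 to 0.029 for Col4a2, -0.359 to 0.052 for Col4a1, -0.420 to 0.316 for Col15a1, -0.751 to 0.075 for Col19a1, -0.537 to 0.157 for Col25a1, -0.618 to 0.425 for Col23a1 and -0.410 to 0.025 for Col11a2, on the log2 scale. RLE scaling changed no call. No paired analysis was possible because replicate numbers follow the order of deposition and the labels give each library a number of its own. Depth limits the scarce genes: Col10a1 held 57 counts in all.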
